A study of Mus musculus with 10 samples.

Results

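Conventional CD4 T cells that shared their T cell receptor with at least 1 other cell of the same tumour (an expanded clone) were compared with conventional CD4 T cells whose receptor was seen in 1 cell only. Members were chosen by measured values, namely counts per cell and receptor contigs. A cell was kept with at least 300 genes, at most 10% mitochondrial UMIs (unique molecular identifiers, each counting 1 captured RNA molecule), a productive TRA and a productive TRB contig, at least 1 Cd4 UMI and no UMI of Cd8a, Cd8b1 or Foxp3. A clone was a set of cells of 1 library with identical V genes and identical CDR3 nucleotides in both chains, and its size was counted over all 14059 cells with paired chains. The rule left 4634 cells of the 22590 cell barcodes. Of these, 589 cells belonged to 342 expanded clones and 4045 cells to clones of 1. The sizes of the clones and the absence of Cd8a, Cd8b1 and Foxp3 are the rule itself and no result.

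The cells came from mouse colorectal carcinoma and were described in the series title as tumour-infiltrating T lymphocytes. Each of 5 tumours gave 1 library of single-cell RNA and 1 library of T cell receptor sequences, paired here by the tumour's name in the sample titles. Per the labels, 2 tumours were untreated, 1 was treated with S. chamaejasme (Stellera chamaejasme, a plant of Asian herbal medicine), and 2 had S. chamaejasme plus anti-PD-1 therapy, an antibody against an inhibitory receptor of T cells (the combination). The labels give no strain, age, dose, time, tumour model or sorting gate, and do not say that the libraries are separate animals, so p-values measure only the spread between these libraries. There were 70, 75, 197, 140 and 107 expanded cells and 256, 525, 686, 1325 and 1253 single cells in untreated 1, untreated 2, S. chamaejasme 1, combination 1 and combination 2. Values given for all 5 libraries follow that order throughout.

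Each T cell carries a receptor assembled by random joining of gene segments, so cells with identical receptor sequences in both chains are taken to descend from 1 ancestor that divided. A CD4 T cell that has not met its antigen circulates through lymph nodes under the factors Klf2 and Lef1 and the homing molecules Ccr7 and S1pr1. After antigen contact it divides, loses these molecules and takes on a helper programme, such as Th1 (interferon gamma), Th17 (IL-17 and IL-22) or follicular helper. Th17 cells are known for the gut mucosa, where the gut flora induces them.

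The summed counts per side ran from 307148 to 747337 UMIs in expanded cells and from 1115903 to 7710603 in single cells. Median UMIs per cell were 4055, 4305, 3508, 4878.5 and 4623 in expanded cells and 3990.5, 4433, 4107.5, 5508 and 5334 in single cells. Pairs of libraries shared 14 to 54 cell barcodes. Receptors were compared only for shared barcodes that were CD4 conventional cells in both libraries, 0 to 3 per pair, and none of these carried the same receptor. The other shared barcodes were not compared. Of 12 marker lists of other cell types, the dendritic cell and erythroid lists had no UMI in expanded cells. The summed level of the neutrophil list was at most 1.24 CPM (counts per 1000000 counts of the library). Of 9 B and plasma cell markers 7 had UMIs in expanded cells (Ms4a1 had none), with a summed level of 30.2 to 82.8 CPM, against 54.5 to 481 CPM in single cells, highest in S. chamaejasme 1. Of 10 monocyte and macrophage markers 8 had UMIs (Csf1r and Adgre1 had none), at 3.35 to 28.5 against 8.60 to 79.0 CPM. Of 8 gamma delta T cell markers 7 had UMIs in expanded cells (Sox13 had none). Their summed level was 20.1, 10.0, 45.1, 19.8 and 10.6 CPM against 9.56, 23.8, 12.2, 5.69 and 4.77 CPM in single cells. Tcrg-C1 led at a mean of 14.4 against 3.54 CPM. The NK and innate-like list summed to 0 to 44.0 against 0.956 to 87.3 CPM. For the MHC class II list it was 20.1 to 69.4 against 21.0 to 78.4 CPM. Their part in the gene changes was not tested. Of the 6 mast cell markers Kit alone had UMIs in expanded cells, at a mean of 29.0 against 10.8 CPM in single cells, and it is among the genes that rose.

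Receptors are shown first. The rule used receptor sequences to size clones within a library, but not their recurrence across tumours. Clone size and recurrence are both read from the CDR3 sequences, so they are not independent measures. The translated CDR3 of both chains was found again in the CD4 conventional cells of another library for 22 of 342 expanded clones, or 6.43% (exact 95% binomial interval 4.07 to 9.58, counting error only). The same was true of 30 of 4045 single clones, or 0.742% (0.501 to 1.06). By library the share was 6.0%, 15.7%, 5.71%, 0% and 8.06% of expanded clones and 1.95%, 0.762%, 0.875%, 0.755% and 0.399% of single clones. Thus expanded clones had the higher share in 4 of 5 libraries. In combination 1 none of 74 expanded clones recurred, which allows a share of up to 4.86% (the upper end of the exact interval) or 4.05% (3 clones of 74). The mean difference was 6.14 percentage points (SD 5.77, n = 5 libraries; exact two-sided sign-flip permutation p = 0.125, where 0.0625 is the smallest possible). Without untreated 2 it was 2.52 points. This comparison was chosen after the receptors had been seen.

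Alone, the translated CDR3 of the beta chain recurred for 15.2% of expanded and 3.41% of single clones. The translated alpha chain recurred for 26.6% and 17.8%. Both were higher in expanded clones in 5 of 5 libraries (exact permutation p = 0.0625 for each). The nucleotide sequences rarely matched: the CDR3 nucleotides of both chains were found in another library for 2 of 342 expanded and 2 of 4045 single clones.

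The recurring receptors that included an expanded clone formed 16 sets with 37 clones, 22 of them expanded. In 5 sets the receptor was expanded in at least 2 libraries, and 4 sets were found in at least 3 libraries. The clearest case paired TRAV9-4 and TRAJ50 with TRBV17 and TRBJ1-4. It included an expanded clone of 2 cells in untreated 2, a clone of 7 in S. chamaejasme 1 and a single cell in combination 1. These 3 clones are printed because they encode 1 receptor with different nucleotides. Capitals mark the positions at which they differ.
untreated 2, 2 cells, alpha: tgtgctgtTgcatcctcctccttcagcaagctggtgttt
S. chamaejasme 1, 7 cells, alpha: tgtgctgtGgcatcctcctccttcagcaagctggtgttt
combination 1, 1 cell, alpha: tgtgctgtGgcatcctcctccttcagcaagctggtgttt
untreated 2, 2 cells, beta: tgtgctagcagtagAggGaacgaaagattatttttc
S. chamaejasme 1, 7 cells, beta: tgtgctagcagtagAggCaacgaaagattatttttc
combination 1, 1 cell, beta: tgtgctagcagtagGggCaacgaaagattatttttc

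A second receptor, of TRAV7-4 and TRAJ26 with TRBV10, was a clone of 11 cells in S. chamaejasme 1, a clone of 2 in untreated 2 and a single cell in untreated 1. Its alpha chain was identical in all 3 libraries, and its beta chain differed at 1 position.
all 3 libraries, alpha: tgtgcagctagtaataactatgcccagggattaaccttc
S. chamaejasme 1, 11 cells, beta: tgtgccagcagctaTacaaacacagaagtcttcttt
untreated 1, 1 cell, and untreated 2, 2 cells, beta: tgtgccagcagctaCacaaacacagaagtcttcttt

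The sets also held 3 close relatives built from TRAV4-2, TRAJ32 and TRBJ2-5. These segments were used by 7 expanded and 10 single clones in all, including a clone of combination 2 with 4 CD4 conventional cells, a number that no clone of that library exceeded. In the set shown, untreated 2 had a clone of 3 cells and combination 1 a single cell. From the first to the second sequence of each chain, the alpha chain differed by T9C and the beta chain by G15A, counted from 1 at the 5′ end of the CDR3.
combination 1, 1 cell, alpha: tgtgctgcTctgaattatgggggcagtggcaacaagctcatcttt
untreated 2, 3 cells, alpha: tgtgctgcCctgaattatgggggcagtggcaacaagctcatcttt
combination 1, 1 cell, beta: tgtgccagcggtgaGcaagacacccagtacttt
untreated 2, 3 cells, beta: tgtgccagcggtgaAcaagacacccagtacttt

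The 22 recurring expanded clones held 40 cells and the other expanded clones 549. In the recurring clones the pooled level of Icos was 1498 CPM and that of Ctla4 910, beside 1279 and 999 in the other expanded clones. Il17a was at 885 against 1151 CPM. Pdcd1 was at 49.5 against 148 CPM and Ifng at 43.3 against 88.9 CPM, with 8 and 7 UMIs in the recurring clones, while Il21 was at 74.3 against 40.1 CPM and Ccr7 at 396 against 250.2 CPM. These pooled sums over unequal libraries were not tested. The mean CDR3 beta length of expanded minus single clones was -0.60 nucleotides (SD 1.10, n = 5; exact permutation p = 0.312). Expanded clones had the longer mean in untreated 1 and the shorter mean in every other library. With 5 libraries the smallest possible p of this test is 0.0625, so it cannot decide whether the lengths differ. Semi-invariant receptors of natural killer T cells (TRAV11 with TRAJ18) were carried by 0 of 342 expanded and 8 of 4045 single clones.

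Most expanded clones were small. Of the 342, 219 had 2 cells, 83 had 3 to 4 and 40 had 5 or more, and the largest, in S. chamaejasme 1, had 26. Expanded clones held 21.5%, 12.5%, 22.3%, 9.56% and 7.87% of the CD4 conventional cells. The number of paired cells differed between libraries, and a larger sample finds more repeats. At the 1144 paired cells of the smallest library the expected shares were 21.5%, 8.36%, 14.6%, 4.55% and 3.67%. Both untreated libraries were above both combination libraries on either measure (mean difference 8.27 and 10.8 points, exact permutation p = 0.333, the smallest that 2 against 2 allows). That order did not hold with 2 other ways of sizing clones. In clones sized over CD4 conventional cells alone the shares were 10.1% and 6.67% in untreated and 7.58% and 5.51% in combination libraries (difference 1.85 points, exact permutation p = 0.667). In clones of 3 or more they were 9.51% and 4.33% against 4.37% and 3.82% (2.83 points, exact permutation p = 0.667).

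**Figure D1:**
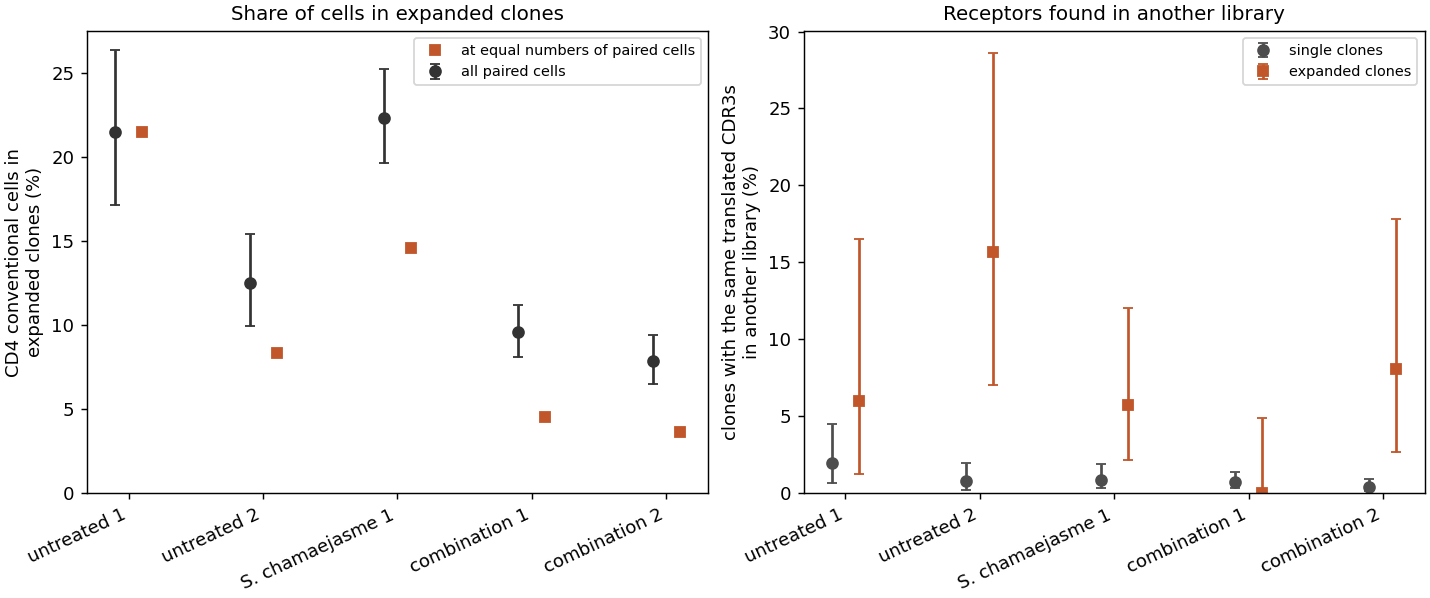
Left, the percentage of CD4 conventional cells in clones of 2 or more by library, with exact 95% binomial intervals (circles), and the expected percentage at 1144 paired cells (squares). Right, the percentage of single and expanded clones whose translated CDR3 of both chains was found in another library, with exact 95% intervals; expanded clones were higher in 4 of 5 libraries, and combination 1 was at 0%.

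Mates outside the rule, meaning cells of these clones that were not CD4 conventional cells, mostly lacked coreceptor UMIs. The 342 clones held 1024 cells, of which 57.5% were the CD4 conventional cells counted here and 38.4% had no UMI of Cd4, Cd8a, Cd8b1 or Foxp3. The rule puts at least 1 CD4 conventional cell in each clone, so the 57.5% is no measure of the mates. In 187 of the 342 clones only 1 cell was a CD4 conventional cell. Foxp3, the factor of regulatory T cells, was seen together with Cd4 in 10 mates, from 10 clones (2.92%). It was seen without a Cd4 or Cd8 UMI in another 7 mates, from 7 clones (2.05%). A further 11 mates had Cd8 UMIs and no Cd4 UMI, and 10 had both.

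Between expanded and single cells, 1422 of 6695 genes tested differed (edgeR's quasi-likelihood test with the library as a block, Benjamini-Hochberg adjusted p under 0.05), 784 higher and 638 lower in expanded clones. That is 11.7% of all tested genes higher and 9.53% lower, the background for every count below. Values are CPM of the summed counts, with library totals scaled by TMM, and changes are log2, expanded minus single, with their standard errors (SE). In such sums, fewer cells of a kind and less RNA per cell cannot be told apart.

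Genes of Th17 cells rose. All 16 genes of a Th17 list were tested, and 16 rose, with a median log2 change of 2.19 against -0.01 over all genes. The gene lists were chosen with earlier results of these data known. Counts by list, here and below, are therefore description and not independent evidence. Il17a, the cytokine IL-17A (chr1:20730905-20734496, plus strand, GRCm38), stood at 1457, 1026, 1156, 1002 and 958 CPM in expanded cells and 366, 174, 406, 33.9 and 67.9 CPM in single cells. The sides did not overlap in Il17a, as for 5.06% of all tested genes with expanded cells higher, and single cells of the combination were lowest. Its log2 change was 2.91 (SE 0.32, adjusted p = 2.6e-06). Il17f, its neighbour (chr1:20777146-20790617, minus strand), stood at 134, 110, 305, 166 and 208 CPM against 43.0, 54.2, 56.0, 11.5 and 15.9 CPM, a change of 2.67 (SE 0.28). It was higher in expanded cells in 5 of 5 libraries without overlap.

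The receptor for IL-23, a cytokine that sustains Th17 cells, followed the same direction in Il23r (2.24, SE 0.37), although untreated 1 had 16.8 against 15.3 CPM. Il22 (2.14, SE 0.23) ranged from 132 to 1715 CPM in expanded cells and from 25.3 to 273 CPM in single cells, with the highest values of both sides in untreated 1. Iltifb, a near-identical copy of Il22 whose reads cannot be separated with certainty, rose by 2.28. The chemokine Ccl20 (2.51), its receptor Ccr6 (2.07), the IL-17 receptor subunit Il17re (2.76) and the nuclear receptor Rora (1.70) rose too. Serpinb1a (2.55), a protease inhibitor, and Nr1d1 (2.32), a nuclear receptor of the circadian clock, were among the largest rises.

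The promoters of Il17a and Il17f are printed because the 2 genes moved together and the nuclear receptor Rora is known to bind the core AGGTCA. The sequences are the 250 bases before each start in the RefSeq table of build GRCm38.p6, 5′ to 3′ on the gene's strand, with the core in capitals. The gene spans given above come from another annotation, GENCODE. For Il17f the printed bases lie inside that span, which reaches further upstream than the RefSeq start.
Il17a, chr1:20730655-20730904, plus strand: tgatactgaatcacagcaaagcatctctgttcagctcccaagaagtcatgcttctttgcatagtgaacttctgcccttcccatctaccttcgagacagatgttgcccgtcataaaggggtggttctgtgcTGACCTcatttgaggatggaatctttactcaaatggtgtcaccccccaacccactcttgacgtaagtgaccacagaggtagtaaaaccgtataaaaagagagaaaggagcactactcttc
Il17f, chr1:20784271-20784520, minus strand: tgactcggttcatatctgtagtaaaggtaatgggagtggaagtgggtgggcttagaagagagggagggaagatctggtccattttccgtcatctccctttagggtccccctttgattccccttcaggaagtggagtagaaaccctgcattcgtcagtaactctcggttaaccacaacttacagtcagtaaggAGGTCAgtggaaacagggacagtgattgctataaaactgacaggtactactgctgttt
The core was searched on both strands. It lies on the reverse strand (TGACCT) 120 bases before the RefSeq start of Il17a and on the forward strand 58 bases before that of Il17f. Of 32851 promoters of this length 14.0% hold it, and 5 of the 13 Th17 list genes in the table do. A match is a description of the letters, not a bound site.

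The share of cells with any UMI of Il17a, Il17f, Il22 or Iltifb was 50.0%, 26.7%, 35.5%, 30.0% and 19.6% in expanded and 15.6%, 7.62%, 7.87%, 2.94% and 2.79% in single cells. With every cell thinned to 2000 UMIs the shares were 45.6%, 25.7%, 31.3%, 21.7% and 18.1% against 13.4%, 6.33%, 6.57%, 2.28% and 2.17%. The thinning left out 22 expanded and 55 single cells with fewer UMIs. CD8 cells, a background for free RNA, had 4.43%, 2.34%, 2.72%, 0.619% and 0.569% at that depth; their median UMIs ran from 4048 to 5895 before thinning. Expanded cells were thus above both other groups in every library, and single cells of the combination were the lowest CD4 group.

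Genes of circulating, resting T cells fell. Of 20 genes of a naive and lymphoid homing list 18 fell and 1 rose, with a median log2 change of -1.39. Igfbp4, a binding protein of insulin-like growth factor that marks resting CD4 T cells in mice (chr11:99041244-99054392, plus strand), stood at 16.8, 0, 17.2, 17.4 and 5.28 CPM in expanded cells. In single cells it stood at 509, 619, 1301, 1215 and 999 CPM, a log2 change of -6.39 (SE 0.19, adjusted p = 1.6e-13). It was nearly absent from expanded cells of all 5 libraries, and no expanded value reached a single one; 5.3% of all tested genes had expanded values all below the single ones. For Dapl1 only 3 counts were left in expanded cells, a ratio of 0.00964 to single cells (exact 95% interval 0.00199 to 0.0282, counting error only).

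Lef1, a factor of naive T cells, stood at 43.6, 110, 83.5, 93.0 and 109 CPM against 393, 494, 478, 535 and 547 CPM (-2.47, SE 0.11). S1pr1, the receptor by which T cells leave tissue, fell by 2.23 on the log2 scale, Ccr7 by 1.96 and Klf2, the factor that drives S1pr1, by 1.51. Values of these 4 genes did not overlap between the sides. Ccr9, a receptor that guides T cells to the gut, was the member that rose (1.76). Tcf7, also a gene of naive and memory cells, was at 251 to 368 CPM in expanded and 313 to 410 CPM in single cells (-0.12, SE 0.08, adjusted p = 0.33). Further large falls were Treml2 (-4.84), Vipr1 (-3.93), the receptor for vasoactive intestinal peptide, Pdlim4 (-3.70), the sialyltransferase St8sia6 (-3.12) and Itm2a (-3.04).

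**Figure D2:**
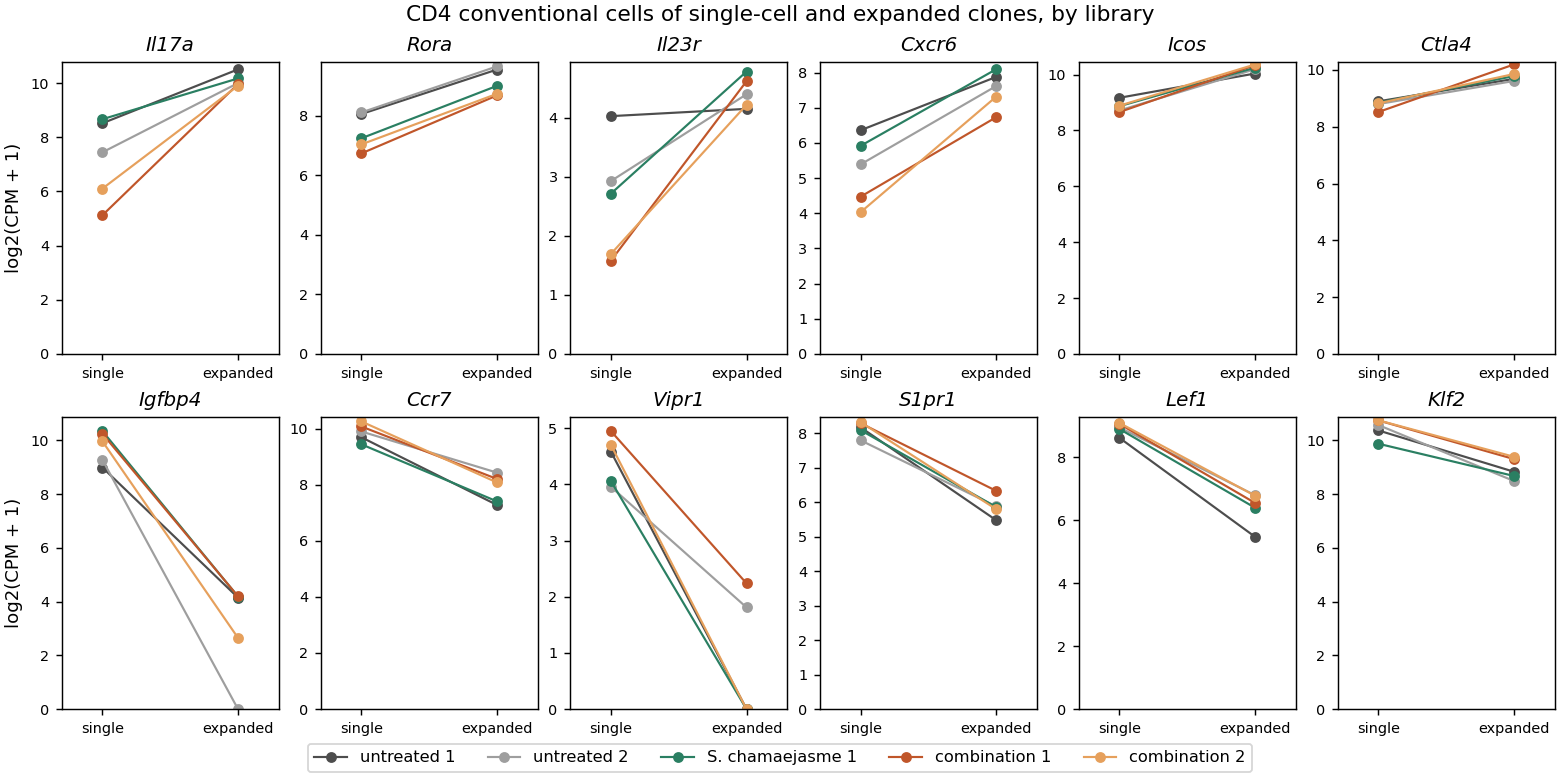
Each panel shows 1 gene as log2(CPM + 1), TMM scaled, in single and in expanded CD4 conventional cells, with 1 line per library. Lines rise in the upper row (Il17a 2.91, Rora 1.70, Il23r 2.24, Cxcr6 2.34, Icos 1.39, Ctla4 1.07) and fall in the lower row (Igfbp4 -6.39, Ccr7 -1.96, Vipr1 -3.93, S1pr1 -2.23, Lef1 -2.47, Klf2 -1.51), in all 5 libraries.

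Over all cells, genes of other helper programmes rose to a smaller extent. Values by list without the cells that hold resting genes are given further below. Of 9 Th1 genes tested 7 rose, with a median of 1.26, among them Ifng, interferon gamma (1.56, SE 0.23), and the IL-18 receptor subunit Il18r1 (1.58). Ifng stood at 23.5, 17.6, 118, 83.1 and 111 CPM in expanded cells and at 8.60, 5.73, 68.2, 30.4 and 16.4 CPM in single cells. It was higher in expanded cells of each library, but the sides overlapped, since both untreated libraries were low. Tbx21, the Th1 factor, was too low to test. Of 14 follicular helper genes 12 rose and 1 fell: Icos, a costimulatory receptor, rose by 1.39 (SE 0.09), Tox2 by 1.57, Cxcr5 by 1.58 and the cytokine Il21 by 1.28, and Il6ra fell by 1.84 on the log2 scale. Of 5 Th2 genes 4 rose, including Il4 (1.34) and the receptor Ccr4 (1.86), whereas the Th2 factor Gata3 was at 63.7 to 102 CPM in expanded and 68.8 to 85.0 CPM in single cells (0.09, SE 0.12, adjusted p = 0.66).

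Receptors of activated cells rose when all cells were compared. Of 14 costimulation genes 10 rose, including Cd44 (1.50) and Tnfsf11 (1.46), and Icos stood at 1052 to 1317 CPM in expanded against 404 to 576 CPM in single cells. Of 13 genes of inhibitory receptors and exhaustion 10 rose. Pdcd1, the gene of PD-1, stood at 16.8, 50.2, 102, 195 and 220 CPM against 7.65, 22.9, 45.2, 43.0 and 55.9 CPM (1.74, SE 0.16). It was lowest on both sides in the untreated libraries. Ctla4 stood at 821, 780, 879, 1168 and 924 CPM against 474, 444, 459, 365 and 452 CPM (1.07, SE 0.11). Lag3 stood at up to 82.8 CPM in expanded and up to 60.5 CPM in single cells (0.39, SE 0.19, adjusted p = 0.18). Of 10 regulatory T cell genes 7 rose, including Il2ra (1.14) and Il10 (1.36), in cells without Foxp3 UMIs.

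Several receptors that guide T cells into tissue rose, and the lymph node receptor Ccr7 fell. Of 14 chemokines and receptors 10 rose and 1, Ccr7, fell, with a median of 1.67. Cxcr6, a receptor of tissue-resident T cells, stood at 235, 196, 273, 105 and 158 CPM against 81.3, 41.0, 59.5, 21.2 and 15.3 CPM (2.34, SE 0.17). Its sides did not overlap. Cxcr3 rose by 1.85 and Ccr2 by 1.80, whereas Cxcr4 did not pass (0.12). Of 13 genes tested from a tissue residency and integrin list, 7 rose and 1 fell, with a median of 0.39. Ccl5, a chemokine made by effector T cells, did not pass: 194, 67.7, 250, 59.5 and 211 CPM in expanded against 33.5, 14.5, 236, 261 and 341 CPM in single cells (-0.20, SE 0.37). It was higher in expanded cells of both untreated libraries and lower in both combination libraries.

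Among 15 genes of S100 proteins, annexins, galectins and lamin 12 rose, led by Lgals3 (2.49), which encodes galectin-3, S100a4 (2.07) and S100a6 (1.92), and Tmsb10 fell by 0.35 on the log2 scale. Of 21 genes of receptor signalling and immediate early response 14 rose, among them Fosb (1.03) and Nfkbiz (0.97), while Myc fell by 1.45 on the log2 scale. Survival genes moved both ways: of 19 tested 7 rose and 5 fell. Bcl2, which protects resting cells, stood at 70.2 to 121 CPM against 216 to 327 CPM (-1.52, SE 0.12), and Bcl2l1 rose by 1.16. Bcl2a1b (1.42) and Bcl2a1d (1.57), near-identical copies whose reads may be split between them, rose. Receptors of the common gamma chain cytokines also divided, with Il2rb (1.09) and Il2ra higher and Il4ra (-1.02) and Il7r (-0.54) lower.

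Metabolic and interferon genes moved less. Of 17 glycolysis and hypoxia genes 9 rose, among them Hk2 (1.97), the first enzyme of glycolysis, and Hif1a (0.85). Only 3 of 28 nuclear genes of oxidative phosphorylation rose, with a median of 0.10. Of 18 genes of the interferon gamma response and MHC class I none rose and 3 fell (Gbp2 -0.99, Tapbp -0.48, Irf1 -0.40). Of 13 genes of the type I interferon response 2 rose, Isg15 (0.80) and Ifi27l2a (0.45), both in 5 of 5 libraries, and 3 fell (Ifi47 -1.09, Bst2 -0.43, Ifi203 -0.40). Of 13 proliferation genes 3 rose, including Top2a (0.88), and Stmn1 fell by 1.08 on the log2 scale. Mki67 was too low to test. Granzyme B (Gzmb) was at 37.6 to 127 CPM in expanded and 10.1 to 240 CPM in single cells (0.56, SE 0.42, adjusted p = 0.39), the highest single value being untreated 2.

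**Figure D3:**
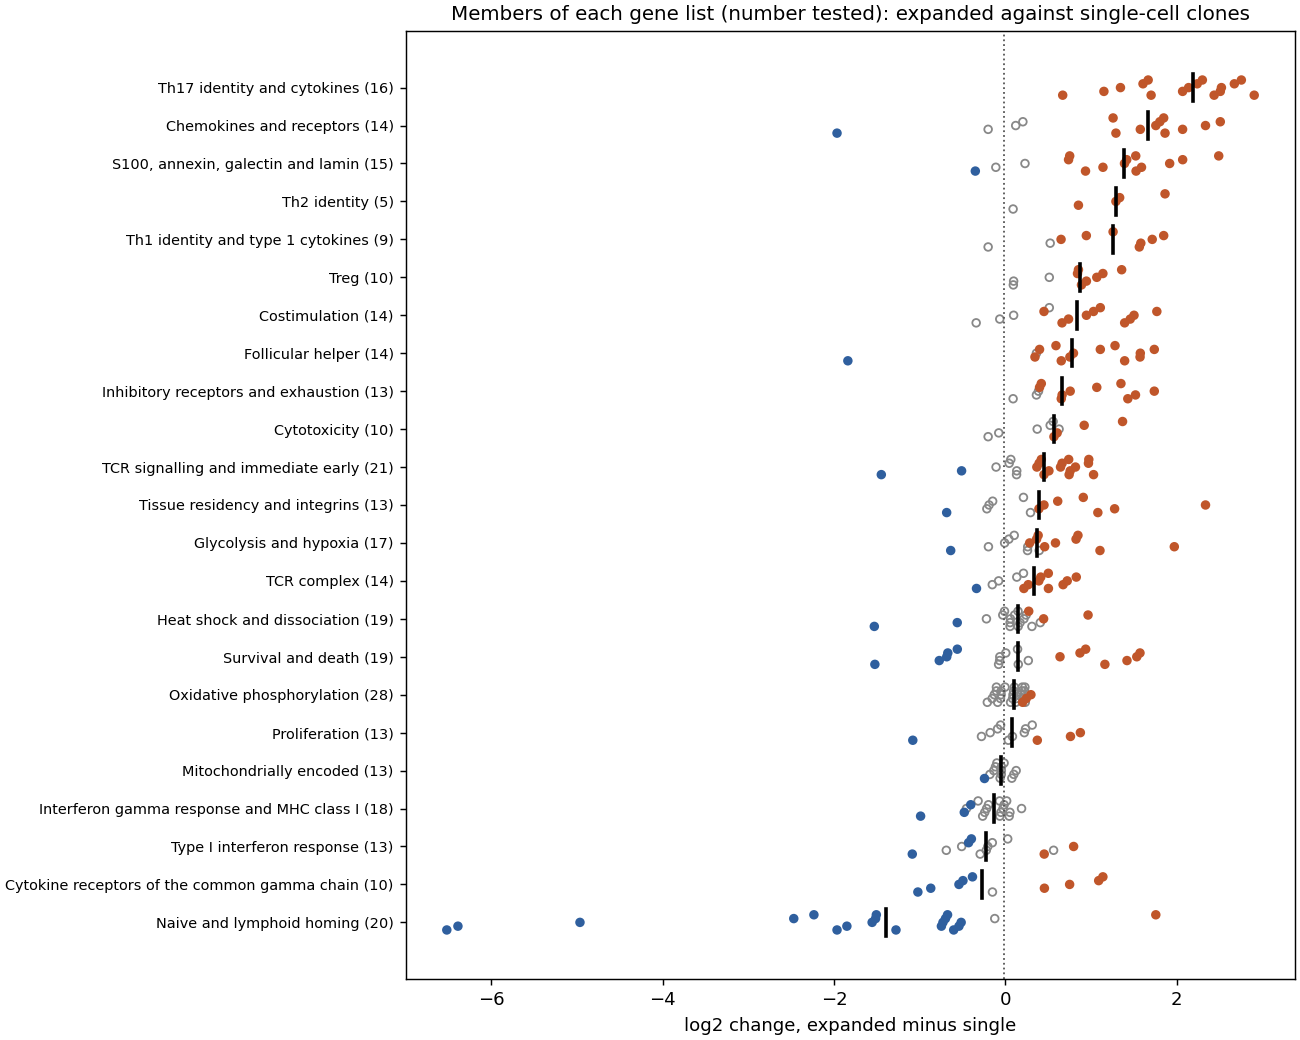
Log2 change, expanded minus single, of every tested member of 23 gene lists, with the number tested in brackets. The lists were chosen with earlier results of these data known. Filled points passed the adjusted p of 0.05 (orange higher, blue lower), open points did not, black bars are list medians, and the dotted line is the median of all genes (-0.01); the Th17 list has the highest median (2.19) and the naive and homing list the lowest (-1.39).

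Measures of RNA quality moved as well. AY036118, a model over ribosomal RNA sequence, was lower in expanded cells in 5 of 5 libraries (-0.63, SE 0.09), and Gm42418, which overlaps it, in 4 of 5 (-0.34, SE 0.09). Median mitochondrial shares were 2.25% to 2.83% in expanded and 2.34% to 2.81% in single cells, and median genes per cell were 1388 to 1749.5 and 1329.5 to 1625. At least 2 productive TRB contigs, a mark of doublets, were found in 1.43%, 4.0%, 2.54%, 3.57% and 6.54% of expanded and 4.3%, 4.19%, 7.14%, 4.08% and 3.43% of single cells. The part of these measures in the gene changes was not tested. In cells with exactly 1 productive TRA and 1 productive TRB, 1337 genes differed, and in cells of the middle range of UMIs 950 differed, all of those called in both fits with their direction kept.

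For the genes plotted by clone size, the change was already present in clones of 2. Here levels are plain CPM, without TMM scaling, as mean ± SD over 5 libraries. Igfbp4 was at 860 ± 330.0 in clones of 1, 15.3 ± 16.4 in clones of 2, 12.2 ± 14.4 in clones of 3 to 4 and 3.24 ± 4.52 in clones of 5 or more. Icos was at 433 ± 68.4, 1261 ± 147, 1283 ± 187 and 1199 ± 305. Il17a was at 195 ± 160, 962 ± 435, 1312 ± 778 and 1386 ± 1538. For Il17a the larger clones differed widely between libraries, and the steps beyond 2 cells lay within that spread. With clones of at least 3 cells in place of 2, 897 genes passed, 855 of them also called with clones of 2.

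**Figure D4:**
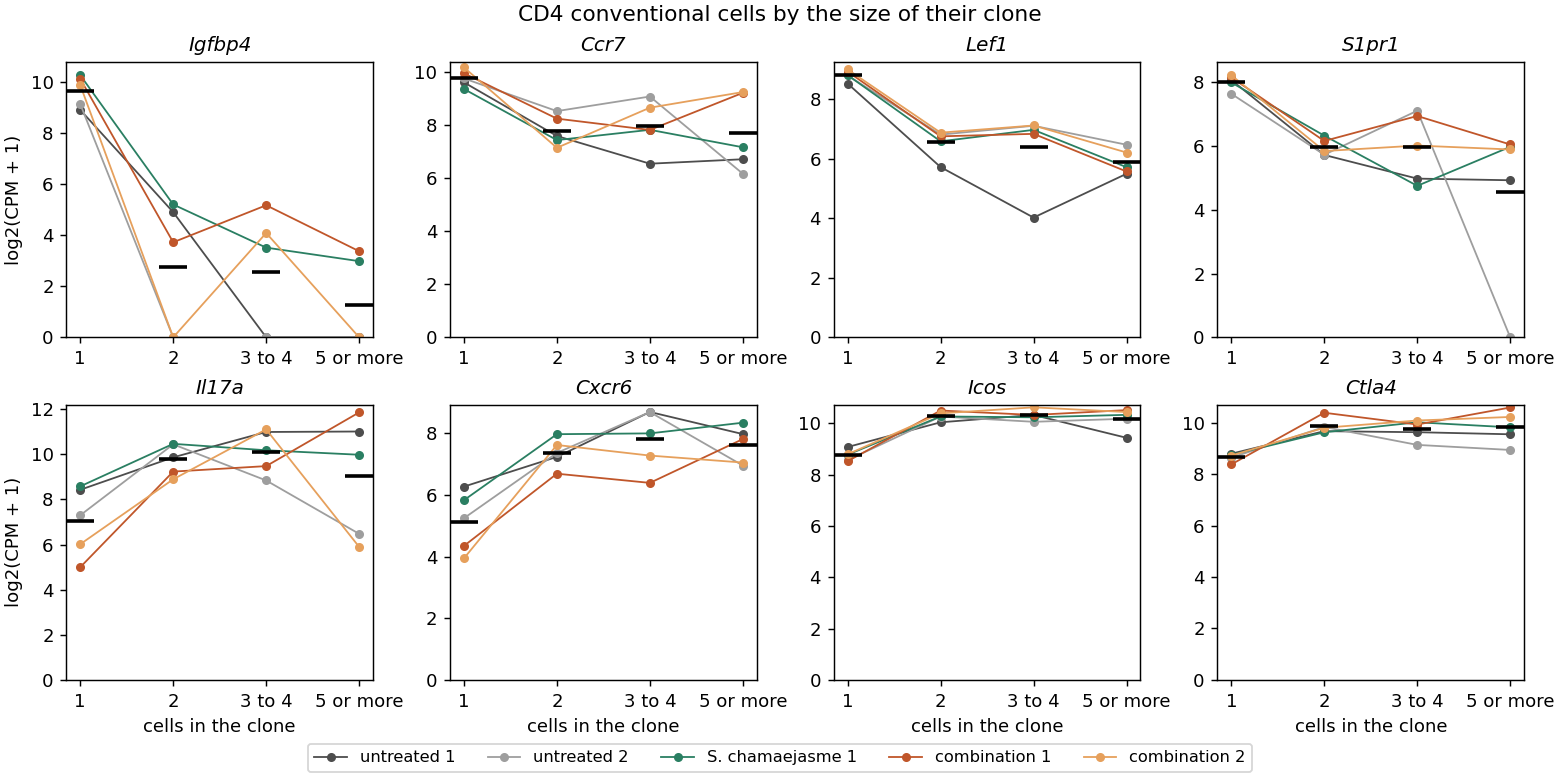
Log2(CPM + 1) of 8 genes in CD4 conventional cells by the size of their clone, 1 line per library; black bars are the means of the 5 log values. Igfbp4, Ccr7, Lef1 and S1pr1 drop and Il17a, Cxcr6, Icos and Ctla4 rise between clones of 1 and 2, and libraries spread in clones of 5 or more, which hold 9 to 79 cells per library.

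The largest clones were not alike. Printed first are the receptors of the 3 clones that stood out, with the first and last codon of each CDR3 in capitals.
untreated 1, clone of 15, alpha: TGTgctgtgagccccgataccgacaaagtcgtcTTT
untreated 1, clone of 15, beta: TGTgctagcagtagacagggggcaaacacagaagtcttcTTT
combination 1, clone of 10, alpha: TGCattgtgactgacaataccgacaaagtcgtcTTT
combination 1, clone of 10, beta: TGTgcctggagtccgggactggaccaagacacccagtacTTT
S. chamaejasme 1, clone of 26, alpha: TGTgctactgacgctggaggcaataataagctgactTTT
S. chamaejasme 1, clone of 26, beta: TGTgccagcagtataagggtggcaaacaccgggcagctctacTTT
The clone of untreated 1, of TRAV9N-4 and TRBV17, had 107 Il17a and 164 Il22 UMIs in 5 CD4 conventional cells, 6195 and 9495 CPM, and no Ifng UMI. The clone of combination 1, of TRAV2 and TRBV31, had 156 Il17a UMIs in 7 cells (5051 CPM) and 7 of Ifng (227). The clone of S. chamaejasme 1, of TRAV8D-1 and TRBV19, had 14 Il17a UMIs (355 CPM), 9 of Ifng (228) and 41 of Ccl5 (1041) in 12 cells. The 2 clones of combination 2 in the plot had at most 1 Il17a UMI and Izumo1r, the folate receptor 4 gene seen in follicular helper and regulatory cells, at 631 and 705 CPM. Another clone of that library, of TRAV7D-2 and TRBV31, also had 4 CD4 conventional cells, with 48 Il17a UMIs (1461 CPM) and Izumo1r at 213 CPM. Igfbp4 was at 0 UMIs in all 10 clones of the plot and in the 4 clones tied with them that it leaves out. Each is 1 clone of 1 library, so differences between them were not tested.

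**Figure D5:**
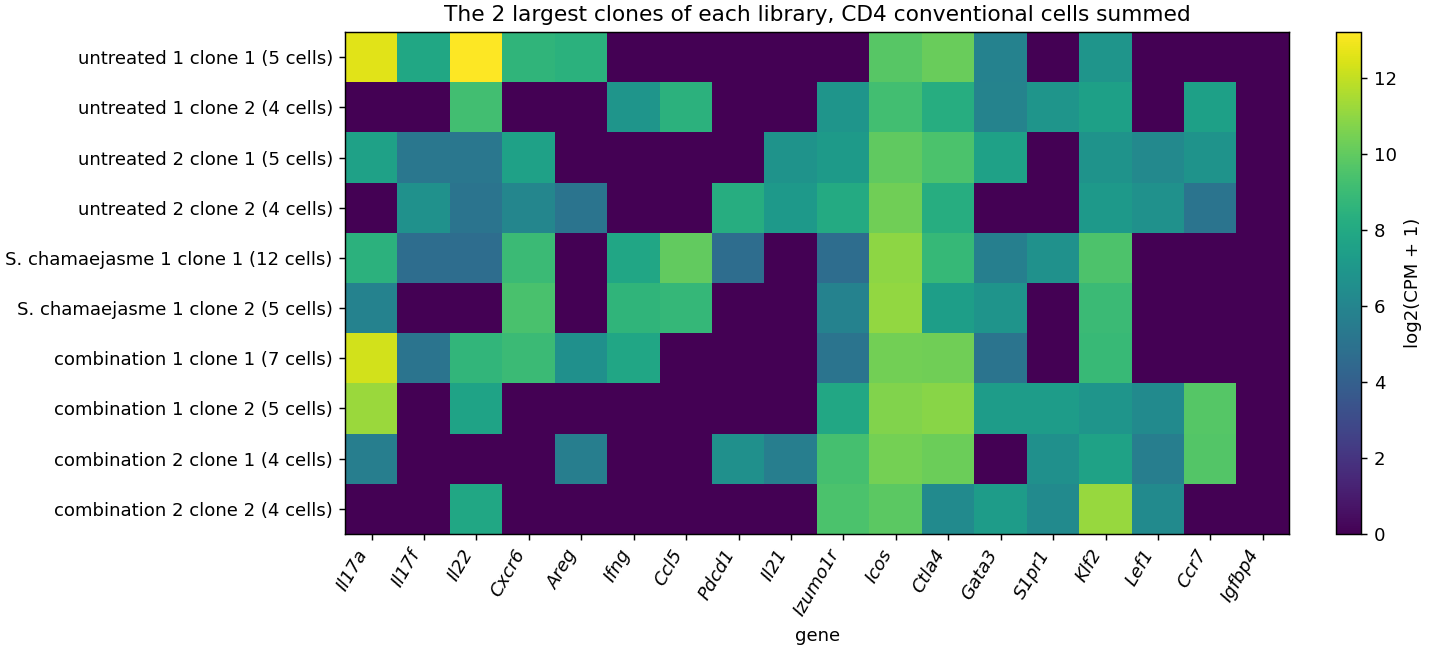
Log2(CPM + 1) of 18 genes in the summed CD4 conventional cells (number in brackets) of the 2 clones with most such cells in each library, ties going to the larger whole clone and then by alphabetical order of the alpha V gene. Il17a is brightest in untreated 1 clone 1 (6195 CPM) and combination 1 clone 1 (5051), Ccl5 in S. chamaejasme 1 clone 1 (1041), and Igfbp4 is at 0 in all 10.

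Clone mates resembled each other in part. In the 155 clones with at least 2 CD4 conventional cells, 43.7% of the mates of a cell with Il17a UMIs also had them, against 18.9% of the mates of a cell without. For Ifng the shares were 34.2% and 13.6%, but in untreated 2 they were 0% and 2.78%, and in S. chamaejasme 1 32.1% and 25.9%. For a UMI of Igfbp4, Dapl1, Ccr7 or Lef1 they were 55.2% and 26.2%, but in combination 2 they were 54.8% and 62.3%. For Il17a the first share was higher in 5 of 5 libraries (in untreated 2, 18.2% against 14.3%). Cells of 1 clone share a library and are not replicates, and no test was made.

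Most single cells held RNA of resting genes. A UMI of Igfbp4, Dapl1, Ccr7 or Lef1 was found in 81.25%, 84.6%, 79.2%, 89.0% and 90.4% of single cells and in 32.9%, 61.3%, 35.5%, 49.3% and 54.2% of expanded cells. At 2000 UMIs per cell the shares were 74.0%, 77.7%, 74.6%, 83.4% and 83.3% against 22.1%, 43.2%, 26.9%, 34.1% and 31.4%. CD8 cells, many of which also express these genes, had 42.0% to 77.4% at that depth and are no background here.

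Leaving out every cell with such a UMI, a setting chosen after seeing the data, left 323 expanded and 538 single cells with median UMIs of 4009 and 4153.5. There 19 of 4242 genes tested passed (0.448%), and 304 were at an unadjusted p under 0.05. The 12 higher genes were Tmem176a (1.54), Lgals3 (1.44), Il17a (1.42), Nebl (1.08), Crip1 (0.81), S100a6 (0.79), Cxcr6 (0.77), Capg (0.76), Lgals1 (0.63), Vim (0.56), Zfp36l1 (0.36) and Tnfaip3 (0.33). The 7 lower were Ctsl (-1.42), Myc (-1.19), Tubb2a (-1.09), Gata3 (-1.03), Cd83 (-0.92), Klf3 (-0.76) and Nrip1 (-0.55). Of 1117 genes called over all cells and tested in this subset, 780 kept their sign. Their median size fell from 0.61 to 0.10 in the direction of the change over all cells, while their median SE rose from 0.12 to 0.19. Icos was 0.27 and Ctla4 -0.04 in this subset, and neither passed. By list, 2 of 13 Th17 genes tested there rose, with a median of 0.45 against 0.00108 over all genes. Medians were 0.12 for Th1 (0 of 10 passed), -0.10 for follicular helper (0 of 14) and -0.71 for Th2 (1 of 5, lower). They were -0.08 for inhibitory receptor and exhaustion genes (0 of 13) and 0.11 for costimulation (0 of 12). Regulatory T cell genes were at -0.39 (1 of 11, higher).

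In the remaining 266 expanded and 3507 single cells, which do hold such a UMI, 1112 of 5670 genes passed (19.6%). There 1273 of 1274 genes kept their sign, with a median size of 0.69 against 0.65 over all cells. These expanded cells held 35 UMIs of Igfbp4, 3 of Dapl1, 700 of Ccr7 and 257 of Lef1. The single cells held 20923, 2194, 20747 and 10333. Expanded cells thus entered this group mostly through Ccr7 and Lef1, and single cells through Igfbp4 as well, so the sides need not be alike. Leaving out cells with UMIs of Il17a, Il17f, Il22 or Iltifb instead left 1219 of 5945 genes past the threshold (20.5%). The resting genes used to choose cells were themselves among the falls of this comparison. The settings also differ in numbers of cells and of genes tested, so their counts of calls cannot be ranked as a result.

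The difference between expanded and single cells was compared between combination and untreated libraries, 2 against 2, to ask whether it changed with treatment. Of 6695 genes 4 passed (0.0597%), among them Il17a, Il17f, Ccl5 and 1 receptor segment gene. For Il17a the log2 difference was 2.05 larger in the combination (SE 0.28, adjusted p = 0.012), and for Il17f 2.49 larger (adjusted p = 0.0026). Single cells of the combination were low: Il17a was at 33.9 and 67.9 CPM there against 366 and 174 CPM in untreated single cells. At 2000 UMIs per cell, CD8 cells with a type 17 cytokine UMI were also fewer there, 0.619% and 0.569% against 4.43% and 2.34%. The part of free RNA in the difference was not tested. Expanded cells lay closer together, at 1002 and 958 CPM in the combination and 1457 and 1026 CPM in untreated libraries. For Ccl5 it was -3.69 (adjusted p = 0.0065), with single cells of the combination at 261 and 341 CPM against 33.5 and 14.5 CPM. With DESeq2 the Il17a difference was 2.07 with an adjusted p of 0.43, and 2 genes passed in all. The single S. chamaejasme library had 406 CPM of Il17a in single cells, close to untreated 1, and has no replicate. The labels name no batch, but untreated and treated tumours have names of different style, so treatment and any batch along the same split cannot be told apart.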

How the data were processed

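Per the labels' protocols, the RNA libraries used Chromium 5′ chemistry. Cell Ranger 3.1.0, STAR and mm10 stand in the submitters' processing notes. The annotation release is not given in the sources read. As deposited, RNA files contain whole UMI counts of 31053 features per barcode, without normalization. Receptor files, also as deposited by the authors, give each contig's segments, CDR3 and length in bases.

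Counts were summed per library and side. Genes were filtered by edgeR's filterByExpr, scaled by TMM and tested with edgeR 4.0.16 (R 4.3.3) by the quasi-likelihood test with the library as a block, because both sides of a library come from 1 tumour. On simulated counts for this comparison (6596 genes), 80 of 98 genes changed by a log2 fold of 1 and 98 of 98 changed by 2 were recovered, with 11 false calls. The simulation gave a gene the same mean level in all libraries and changed few genes. These rates need not hold for the real counts. DESeq2 1.42.0 was an alternative. Python 3.11.15, scipy 1.17.1 and Biopython 1.88 were used for the rest. No doublet caller was run. Thinning drew 2000 UMIs per cell.

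Genes were named by rule: among genes passing, changed the same way in 5 of 5 libraries and at 20 CPM or more on the higher side, the 15 largest rises and 12 largest falls (leaving out the genes of the selection rule, receptor segments and models with provisional names), a fixed panel of cytokine, receptor and factor genes, and the leading members of each list. The clone rule, the members and the lists were chosen with earlier results of these data known. Some genes and 1 receptor sequence are not reported here.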

Additional observations from a re-analysis of the deposited data

Results flagged for a closer look

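Of 54 sets of 5 library ratios examined, 3 had 1 library far from the other 4; chance alone flags about 1 set in 20. The log2 ratio of expanded over single cells for Itm2a was -4.10 in untreated 2, with the others from -2.97 to -2.66. For Ctla4 it was 1.67 in combination 1, with the others from 0.79 to 1.03. For Ccr6 it was 0.089 in untreated 1, with the others from 2.09 to 2.33; there single cells had 22.0 CPM and expanded cells 23.5 CPM.

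The difference between expanded and single cells differed between combination and untreated libraries by 2.05 for Il17a, by 2.49 for Il17f and by -3.69 for Ccl5 on the log2 scale, by the interaction term of edgeR's quasi-likelihood fit. This rests on 2 libraries against 2, and 2 genes passed with DESeq2 where 4 passed with edgeR. Eomes was at 0 UMIs in expanded cells, and the summed level of the 6 CD8 markers considered, Ccl5 included, ran from 110 to 383 CPM in expanded and from 53.7 to 417 in single cells. The part of CD8 cells in the Ccl5 difference was not tested.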

How the results depend on the processing

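The number of genes that differed (1422) ranged from 1015 to 1527 when each library was left out in turn. It was 948 with DESeq2 and 967 without the block, a fit in which 965 of the calls were shared and kept their direction. With a replicate block (the main fit) the library pairs both sides by construction. It was 897 with clones of 3 or more, with fewer expanded cells, and 19 in cells without the 4 resting genes. Scaling and the gene filter moved the balance of calls: 55.1% were higher with TMM, 45.2% with upper quartile scaling, and 45.8% with the filter widened to all genes that had at least 1 count. The combination against untreated count (4) was 2 with DESeq2, 10 with clones of 3 or more, 10 with 1 cell per clone and 36 with all genes, and 12 to 89 when 1 of the 4 libraries was left out. CDR3 alpha length differed by 0.147 nucleotides, opposite in sign to beta. The difference in recurring receptors ranged from 2.52 to 6.83 points, and that in CDR3 beta length from -1.002 to -0.34 nucleotides, when each library was left out.

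Of 109 named genes that passed, 92 still passed without the block and 102 with DESeq2, and none of them changed sign in either. The genes that had not passed crossed 0: Ccl5 was 0.40 with DESeq2, -0.55 to 0.37 when each library was left out (0.037 without combination 2), 0.12 with 1 cell per clone and 0.31 with Foxp3, Ikzf2 and Il2ra at 0. Gzmb was -0.0016 without the block. Gata3 was -0.0013 to 0.17 when each library was left out, -0.070 with clones of 3 or more and -0.10 with sizes counted over CD4 conventional cells. Tcf7 was 0.11 in cells with a UMI of the 4 resting genes and 0.10 in cells without the 4 type 17 genes. In cells without the 4 resting genes the sign turned for Gzmb (-0.42), Ctla4 (-0.038), Lag3 (-0.67), S1pr1 (0.040), Il7r (0.081), Bcl6 (-0.12), Gata3 (-1.03), Maf (-0.084), Il4 (-0.71), Areg (-1.16), Tnfrsf4 (-0.16), Tigit (-0.14), Nkg7 (-0.57), Gzmk (-0.025), Crem (-0.0046), Nfatc1 (-0.090), Il4ra (0.28), Stmn1 (0.42), Isg15 (-0.028), Ifi27l2a (-0.25), Bst2 (0.15), Irf1 (0.40), Ier2 (0.087), Hif1a (-0.077) and Cox6c (-0.0022). The cause was not tested. In that setting 8 of 91 named genes that had passed still did.

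Depth and numbers limit these values. Cells were few, 70 to 197 expanded per library, and 187 of 342 expanded clones rest on 1 CD4 conventional cell. Mates of a clone of 1 that were not captured are not seen. Genes under the filter, among them Tbx21, Il2, Csf2 and Mki67, could not be tested at this depth.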
